A study of Arabidopsis thaliana with 8 samples.

Results

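AT2G44530 and AT-HF act at separate steps of a metabolic route, the supply of phosphoribosyl diphosphate and its use in the synthesis of histidine. Each was represented by 1 probe whose platform annotation names that gene alone, so 2 of the 3439 probes on the arrays are described here, out of 692 that name a single gene. RNA abundance was compared between 4 arrays of the *Arabidopsis thaliana* *atpd* mutant, which has no ATP synthase delta subunit, and 4 arrays of wild type (WT), with plants of both genotypes in the Wassilevskija ecotype on MS (Murashige and Skoog) medium. Allele, tissue and plant age are points not given in the sources used here. Nothing says whether arrays of a genotype carried RNA of separate plants, and p-values therefore measure the spread between arrays alone, which may be technical. Intensities are on the arbitrary linear scale of the deposited table, which ends at 100, and the number of arrays limits the precision.

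Phosphoribosyl diphosphate is the activated form of ribose, made from ribose 5-phosphate and ATP by phosphoribosyl diphosphate synthases, of which AT2G44530 encodes a member. It feeds purine and pyrimidine nucleotides, the pyridine nucleotide cofactors, tryptophan and histidine. Histidine synthesis, a plastid pathway in plants, begins by joining phosphoribosyl diphosphate to ATP. AT-HF (locus AT4G26900, also called HISN4) encodes the imidazole glycerol phosphate synthase further along, which takes nitrogen from glutamine, closes the imidazole ring and releases an intermediate that returns to purine synthesis.

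The probe of AT-HF was brighter in *atpd* by every scaling tried, while that of AT2G44530 overlapped between genotypes as deposited and was lower relative to the other probes of its arrays. The changes were 1.17 (SE 0.14) for AT-HF and -1.14 (SE 0.16) for AT2G44530 on the log2 scale after quantile normalisation, with adjusted p of 0.000166 and 0.000396 (limma, Benjamini-Hochberg over 2921 tested probes). These correspond to 2.25-fold higher and 2.21-fold lower normalised intensity in *atpd*. Calls were frequent on these arrays: 51.8% of tested probes passed the threshold of 0.05, with 21.4% higher and 30.4% lower in *atpd*, so that passing it does not by itself set either gene apart. Each array measured RNA of whole samples, in which fewer cells of a type and less RNA per cell cannot be told apart.

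For AT2G44530, the deposited intensities were 0.505, 0.432, 0.529 and 0.572 on *atpd* arrays 1 to 4, against 0.621, 0.502, 0.580 and 0.436 on WT arrays 1 to 4. The genotypes overlapped, with the lowest value of all on *atpd* array 2 and the highest on WT array 1. The mean was 0.510 ± 0.0588 in *atpd* and 0.534 ± 0.0823 in WT (SD, n = 4 each), a log2 difference of -0.063 (SE 0.16, limma adjusted p = 0.726) with no scaling between arrays. Over all tested probes the median difference on that scale was 0.996, and the median intensity above 0 was 0.613 to 0.705 on *atpd* arrays and 0.279 to 0.303 on WT arrays. AT2G44530 lay 1.06 below the median probe as deposited, 1.05 below it after quantile normalisation and 1.15 below it with cyclic loess. Shifting the arrays to a common median moves all probes of an array alike, so the distance stayed at 1.06 by construction. After quantile normalisation its log2 level was -1.49, -1.71, -1.64 and -1.54 on *atpd* arrays 1 to 4, against -0.18, -0.45, -0.43 and -0.77 on WT arrays 1 to 4. On that scale every *atpd* array was below every WT array, as held for 29.8% of tested probes.

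AT-HF had deposited intensities of 2.04, 2.30, 2.15 and 2.21 on *atpd* arrays 1 to 4, against 0.668, 0.674, 0.592 and 0.715 on WT arrays 1 to 4. All *atpd* arrays were above all WT arrays, and the lowest *atpd* value was that of array 1. On the deposited scale 59.7% of tested probes had their *atpd* arrays above their WT arrays in this way, and 21.3% after quantile normalisation. The mean intensity was 2.17 ± 0.111 in *atpd* and 0.663 ± 0.0513 in WT (SD, n = 4 each), a log2 difference of 1.72 (SE 0.12, limma adjusted p = 1.14e-05), 0.72 above the median probe, on a scale where 62.6% of tested probes were called higher. The quantile-normalised log2 levels were 0.83, 1.07, 1.003 and 1.03 on *atpd* arrays 1 to 4 and -0.092, -0.072, -0.39 and -0.20 on WT arrays 1 to 4. The size of the rise depended on the scaling: it was 1.33 after cyclic loess and 0.55 with a common median (adjusted p = 0.0120), the smallest of the settings run. With a common median 18.7% of tested probes were called higher in *atpd*.

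**Figure D1:**
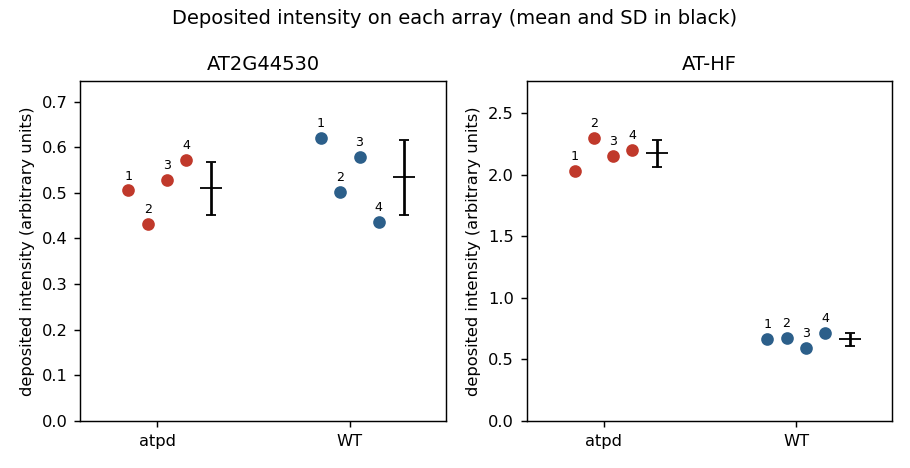
Deposited intensity (arbitrary units, from 0) of the AT2G44530 and AT-HF probes on the 4 *atpd* arrays and the 4 WT arrays, numbered by replicate, with mean and SD in black. AT2G44530 overlaps between genotypes, at 0.432 to 0.572 in *atpd* and 0.436 to 0.621 in WT, while AT-HF lies at 2.04 to 2.30 in *atpd* and 0.592 to 0.715 in WT.

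The position of a probe among all probes of its own array does not depend on how the arrays are scaled, and was examined after the values had been seen. AT2G44530 was at brightness percentiles of 46.9, 40.8, 42.6 and 45.4 on *atpd* arrays 1 to 4, against 83.0, 77.2, 77.8 and 69.0 on WT arrays 1 to 4. It lay below the middle of every *atpd* array and above the middle of every WT array. The mean position was 43.9 ± 2.78 in *atpd* and 76.8 ± 5.76 in WT (SD, n = 4 each), a difference of -32.8 percentile points, lower in 4 of 4 *atpd* arrays. AT-HF was at percentiles of 94.3 to 95.3 on *atpd* arrays and 78.7 to 84.9 on WT arrays, a mean of 94.9 ± 0.407 in *atpd* and 82.7 ± 2.85 in WT. The difference was 12.2 points, higher in 4 of 4 *atpd* arrays. Quantile-normalised values follow these positions, so they restate the separation given above and were not tested. On those values 29.8% of tested probes had all *atpd* arrays below all WT arrays, and 21.3% had them above. Such separation was therefore common.

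**Figure D2:**
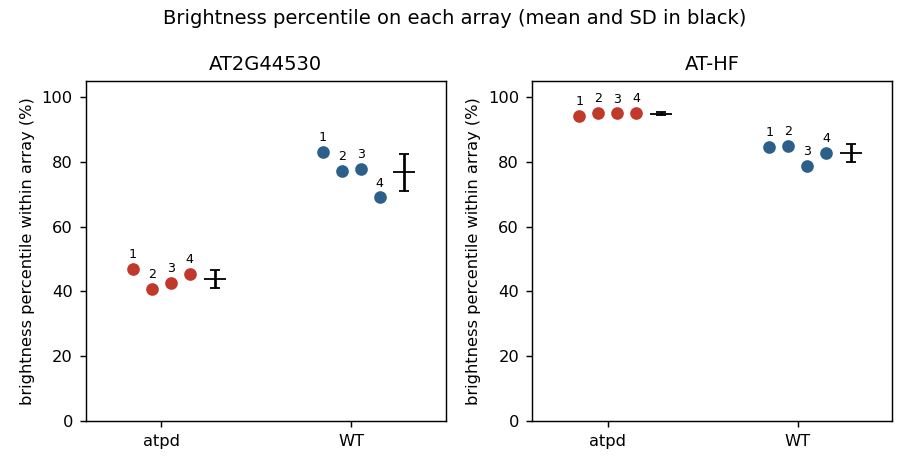
Brightness percentile (0 to 100%) of each probe among the 3439 probes of the same array, for the 4 *atpd* and the 4 WT arrays numbered by replicate, with mean and SD in black. AT2G44530 lies at 40.8 to 46.9 in *atpd* and 69.0 to 83.0 in WT, and AT-HF at 94.3 to 95.3 in *atpd* and 78.7 to 84.9 in WT.

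Whether AT2G44530 and AT-HF changed unequally was tested with the difference between both probes on each array. These are 1 of 5 phosphoribosyl diphosphate synthases and 1 of 11 histidine loci, so supply and use as a whole were not tested. A factor equal for all probes of an array cancels in the difference between probes, while one that varies with intensity does not. The probes differ in their response to RNA, so the level of this difference has no meaning of its own and only its change between genotypes was read. The log2 value of AT2G44530 minus that of AT-HF, after quantile normalisation, was -2.32, -2.78, -2.65 and -2.57 on *atpd* arrays 1 to 4, against -0.085, -0.37, -0.035 and -0.57 on WT arrays 1 to 4. The highest *atpd* value, -2.32, was below the lowest WT value, -0.57. The mean was -2.58 ± 0.20 in *atpd* and -0.27 ± 0.25 in WT (SD, n = 4 each), so the change of AT2G44530 was 2.31 below that of AT-HF on the log2 scale (two-sided exact permutation p = 0.0286, over 70 splits, the smallest that 4 arrays against 4 allow). Since each probe already separated the genotypes, in opposite directions, that p was fixed by the separation. Both genes were also chosen with earlier results of these data known, so the p is no independent support. The 70 splits ignore the numbers and sets of the arrays, and swaps within same-number pairs gave an exact p of 0.125, the smallest that 4 pairs allow, with the difference negative in 4 of 4 pairs. With the values as deposited, or with a common median, the means were -2.10 ± 0.21 in *atpd* and -0.32 ± 0.31 in WT, and the difference of changes was -1.78 (exact p = 0.0286). As deposited it came from changes of -0.063 for AT2G44530, which overlapped between genotypes, and 1.72 for AT-HF. With a common median the changes were -1.23 and 0.55. After cyclic loess the difference of changes was -2.45, so its size depended on the scaling. These p-values rest on the same arrays and are not separate results.

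**Figure D3:**
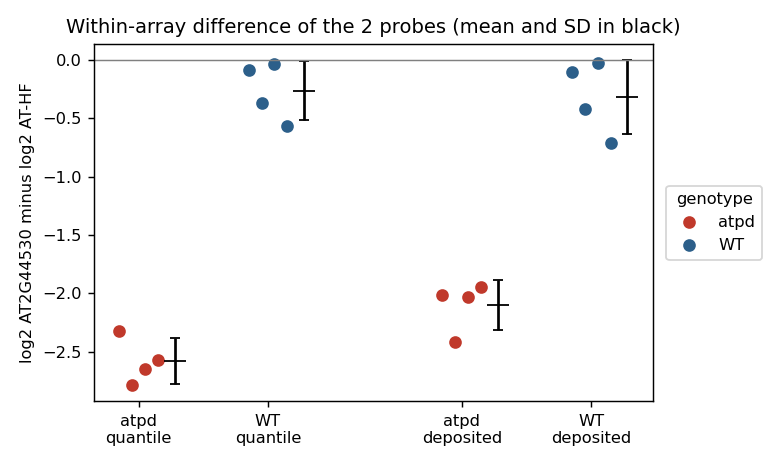
Log2 value of AT2G44530 minus log2 value of AT-HF on each of the 4 *atpd* and 4 WT arrays, after quantile normalisation and as deposited, with mean and SD in black. On both scales all *atpd* arrays lie below all WT arrays, at -2.78 to -2.32 against -0.57 to -0.035 after normalisation.

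Arrays with the same number were also set side by side. The deposited intensity of AT-HF in *atpd* was 3.05, 3.41, 3.64 and 3.08 times that in WT for numbers 1 to 4. That of AT2G44530 was 0.814, 0.860, 0.913 and 1.31 times that in WT. On this scale, where the median probe was higher in *atpd* by 0.996 log2, AT-HF was higher in *atpd* in 4 of 4 such comparisons and AT2G44530 lower in 3 of 4. All *atpd* arrays were above all WT arrays for 59.7% of tested probes as deposited. The share of probes lower in 3 of 4 was not counted. After quantile normalisation AT2G44530 was lower in 4 of 4, by log2 differences of -1.31, -1.27, -1.22 and -0.78 for numbers 1 to 4. On that scale all *atpd* arrays were below all WT arrays for 29.8% of tested probes. Arrays 1 and 2 of each genotype resembled each other more than they resembled arrays 3 and 4, so the changes were also taken within each set. After normalisation of each set alone AT2G44530 changed by -1.28 in arrays 1 and 2 (limma adjusted p = 0.00734) and by -1.004 in arrays 3 and 4 (0.00973), and AT-HF by 1.05 (0.00746) and 1.28 (0.00303). As deposited, AT2G44530 was at -0.26 in arrays 1 and 2 and 0.13 in arrays 3 and 4, and AT-HF at 1.69 and 1.74. The error in each set alone is only the spread within pairs of arrays.

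**Figure D4:**
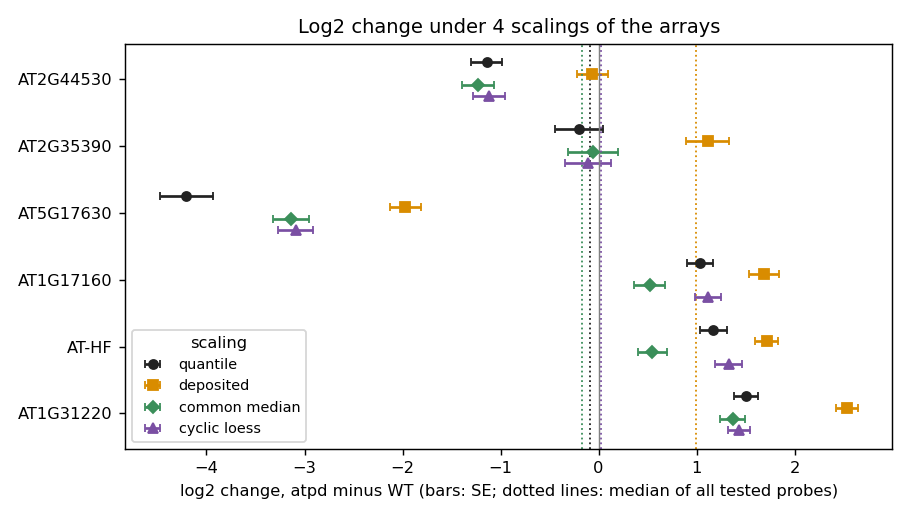
Log2 change, *atpd* minus WT, with its SE (bars) for the 6 tested genes of the pathway lists under the 4 scalings of the key; dotted lines mark the median change of all 2921 tested probes under each scaling. AT-HF lies at 0.55 to 1.72 and AT2G44530 at -1.23 to -0.063, the latter value as deposited, where the median probe is at 0.996.

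Other genes of the route came from lists of 101 loci for phosphoribosyl diphosphate synthesis, histidine synthesis, the pentose phosphates that supply ribose, and the other users of phosphoribosyl diphosphate. A probe naming a single gene was found for 9 of these loci, 7 more were named only on probes with several genes, and 6 were tested. After quantile normalisation 3 of the 6 rose, 2 fell and 1 did not pass. Over all tested probes 51.8% were called, 21.4% higher and 30.4% lower. The median change of the 6, which include AT2G44530 and AT-HF, was 0.42 on the log2 scale, against -0.090 over all tested probes. As deposited, AT2G35390 was called higher (1.11) and AT2G44530 was not called (-0.063). The histidine list had 11 loci, of which AT-HF was the tested member, so the other steps of that pathway are not analysed here. The same holds for histidyl-tRNA synthetases and for tryptophan, pyrimidine and glutamine synthesis, where 0 loci were tested.

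Of the 5 phosphoribosyl diphosphate synthases, AT2G35390 was also tested. Its deposited intensities were 0.479, 0.425, 0.377 and 0.372 on *atpd* arrays 1 to 4, against 0.249, 0.243, 0.147 and 0.147 on WT arrays 1 to 4. The values of arrays 3 and 4 were below those of arrays 1 and 2 in both genotypes. Its log2 change was -0.20 (SE 0.24, limma adjusted p = 0.516), and 1.11 as deposited (adjusted p = 0.00233), where it lay 0.12 above the median probe. The change of AT2G44530 was not tested against that of AT2G35390. Members of such an enzyme family can be alike in sequence, and whether either probe also bound transcripts of the other was not tested.

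Of the loci that supply ribose phosphate, 2 of 27 were tested, and they moved in opposite directions. AT1G17160, a ribokinase that phosphorylates free ribose, had intensities of 1.77, 1.79, 1.80 and 1.86 on *atpd* arrays 1 to 4, against 0.459, 0.492, 0.640 and 0.676 on WT arrays 1 to 4. The genotypes did not overlap, with *atpd* above WT, as held for 59.7% of tested probes on the deposited scale. The log2 change was 1.03 (SE 0.13, limma adjusted p = 0.000267). It was 1.69 as deposited and 0.52 with a common median, and with the means of array pairs the call was lost (adjusted p = 0.0517). AT5G17630, the transporter of pentose phosphates across the plastid envelope, had 0.0671 to 0.0904 in *atpd* and 0.248 to 0.336 in WT. Its change was -4.21 after quantile normalisation (SE 0.27, adjusted p = 8.95e-06), -3.14 with a common median, -3.09 after cyclic loess and -1.97 as deposited. On *atpd* arrays it lay at brightness percentiles of 12.7 to 14.0, little above the probes at 0, so the size of the change is uncertain. AT1G12230, a transaldolase, was listed at 0 on all 8 arrays, and AT5G44520, a ribose 5-phosphate isomerase, on all but WT array 4, so neither was tested.

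AT1G31220, the formyltransferase of purine synthesis, was the tested member of the 11 purine loci and belongs to a pathway that starts from phosphoribosyl diphosphate. Its intensities were 1.12, 1.09, 1.205 and 1.17 on *atpd* arrays 1 to 4, against 0.195, 0.189, 0.198 and 0.208 on WT arrays 1 to 4. Every *atpd* array was above every WT array, again as in 59.7% of tested probes on that scale, and the coefficient of variation was 4.52% in *atpd* and 4.10% in WT. Its log2 change was 1.504 (SE 0.12, limma adjusted p = 2.45e-05), and 2.53 as deposited, 1.54 above the median probe. UPP, the uracil phosphoribosyltransferase that salvages uracil with phosphoribosyl diphosphate, was listed at 0 on all *atpd* arrays and at 0.00895 and 0.0593 on WT arrays 1 and 2, and was not tested.

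**Figure D5:**
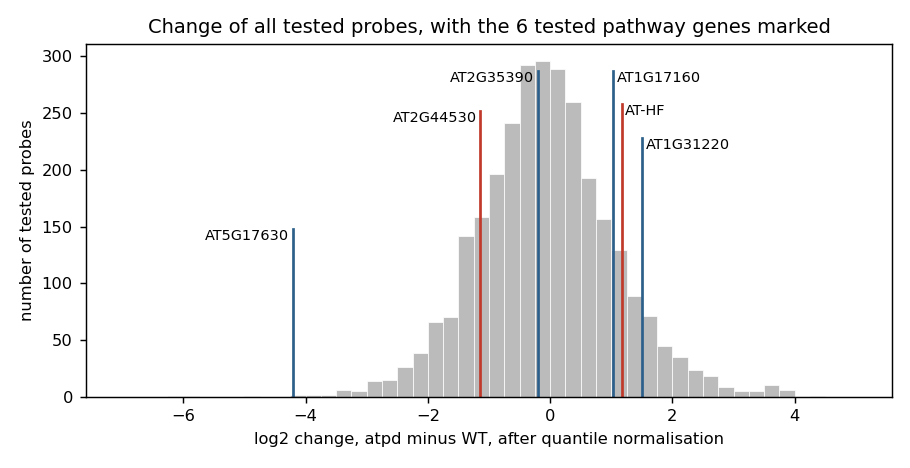
Number of tested probes by log2 change, *atpd* minus WT, after quantile normalisation, with lines at the changes of the 6 tested genes (AT2G44530 and AT-HF in red, the others in blue; line heights carry no value). AT2G44530 has a lower change than 84.4% of the 2921 probes and AT-HF a higher one than 87.9%.

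Neither gene was at an extreme of the tested probes. Of these, 15.6% had a lower change than AT2G44530, and 87.9% had a lower change than AT-HF, after quantile normalisation. As deposited or with a common median these shares were 16.2% and 75.4%, and after cyclic loess 11.5% and 88.8%. Likeness of pattern was measured as Pearson's r of normalised log2 values over the 8 arrays, among 570 other single-gene probes above 0 on all of them. This r takes in the difference between genotypes, which many probes share, and is given as a description. Closest to AT2G44530 were AT3G09490 (r = 0.981), RALFL32 (r = 0.980), of the rapid alkalinization factor family of signalling peptides, and AT2G38070 (r = 0.976). RALFL32 had a mean intensity of 0.574 ± 0.0335 in *atpd* and 0.601 ± 0.0429 in WT (SD, n = 4 each), and, like AT2G44530, its log2 change was small as deposited (-0.066, limma adjusted p = 0.619) and -1.10 after normalisation (adjusted p = 0.000227). AT2G38070 was at -0.16 as deposited (limma adjusted p = 0.361) and -1.31 after normalisation. AT3G09490, the closest, was lower on both scales, at -0.82 as deposited (limma adjusted p = 0.000859) and -1.76 after normalisation. Closest to AT-HF were PSBW (r = 0.991), a small photosystem II subunit, AT4G09620 (r = 0.988) and AT4G19900 (r = 0.986). AT4G09620 had a mean intensity of 1.45 ± 0.0544 in *atpd* and 0.358 ± 0.0597 in WT (SD, n = 4 each), with a log2 change of 1.15 (limma adjusted p = 0.000456). PSBW and AT4G19900 changed more than AT-HF after normalisation, by 2.14 and 3.56. As deposited PSBW was at 1.47, less than the 1.72 of AT-HF, with AT4G09620 at 2.03 and AT4G19900 at 3.72. An r above 0.95 was reached by 33 of the 570 probes for each gene, or 5.79%.

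No probe names ATPD alone, so the absence of its transcript in *atpd* was not checked, and 0 of the 13 leaf and root marker loci were tested, so the tissue was not checked either. Between 395 and 430 of the 3439 probes were at 0 on each array. Over all tested probes 625 were higher and 888 lower after quantile normalisation (41.3% of calls higher), against 1829 and 260 as deposited (87.6% higher).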

How the data were processed

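The deposited values are 1 intensity for each probe on each of 8 arrays, with background correction and scaling not given in the sources used here. Genotype and replicate number came from the sample titles. Platform annotation names a single gene for 692 probes, several for 870 and none for 1877, and 690 of the 692 matched the RefSeq gene table (TAIR10.1), used for names only.

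Values at 0 were treated as missing, log2 values were quantile-normalised, and probes with at least 3 values in each genotype (2921, both genes of this report included) were fitted with limma 3.58.1 in R 4.3.3 (lmFit, eBayes, two-sided, Benjamini-Hochberg, threshold 0.05). Changes are log2 *atpd* minus WT. The fit was tested on simulated data. Alternatives were other scalings, filters on low values, a pseudocount of 0.1, blocks (statmod 1.5.0), array weights, another prior and each array left out.

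Genes named are AT2G44530, AT-HF, every member of the pathway lists with a single-gene probe, and for both genes the 3 probes with the highest r. The genes and lists were chosen with earlier results of these data known. The lists came from general knowledge of the pathways. All 101 loci are in the RefSeq table, whose symbols do not describe most of them.

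Replicate numbers are shared by both genotypes in the titles. Deviations from the genotype means correlated at 0.362, 0.277, 0.289 and 0.276 between *atpd* and WT arrays of numbers 1 to 4, all over 0.1. The numbers were therefore taken to pair the arrays in the replicate block and in the swaps within pairs. Arrays of different numbers correlated at -0.31 to 0.27, the upper end close to those values, so pairing by number is hard to tell from the sets formed by arrays 1 and 2 and by arrays 3 and 4. The main fit had no term for pairs or sets. Within a genotype, arrays 1 and 2 correlated at 0.611 in *atpd* and 0.190 in WT, and arrays 3 and 4 at 0.751 in *atpd* and 0.197 in WT.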

Additional observations from a re-analysis of the deposited data

How the results depend on the processing

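As deposited, AT2G44530 was at -0.063 and not called (adjusted p = 0.726), where the median of all probes moved to 0.996. Its call held in the other 21 of 22 planned settings, most of which kept quantile normalisation. Of the other scalings, the call held with a common median and with cyclic loess. Quantile, common-median and loess scaling all bring the middle of the arrays close together. Summed intensity differed less between genotypes than the median did, at 3484 to 3560 on *atpd* arrays and 2890 to 3204 on WT arrays. Scaling to that sum was not run, so the call of AT2G44530 is shown only for scalings of the former kind. AT-HF kept its direction and call in all 22, with changes of 0.55 to 1.72 and adjusted p of at most 0.0364, and the difference of changes stayed between -2.45 and -1.78. That difference has an exact p of 0.125, the smallest possible, with swaps within pairs, and was not tested under the pair and set settings, the other prior or array weights. With a replicate block for the pairing, AT2G44530 was at -1.14 (adjusted p = 0.00179) and AT-HF at 1.17 (0.00130), with 1656 probes called, and no call of a named gene of the pathway lists changed. The number of called probes, 1513, was 924 with array pairs as a random block and 686 with pair means, which hold fewer independent units, and adjusted p was then 0.0123 and 0.0401 for AT2G44530 and 0.00437 and 0.0364 for AT-HF. Leaving out each array gave 1301 to 1478 calls, changes of -1.21 to -1.04 for AT2G44530, 1.07 to 1.26 for AT-HF and a difference of -2.45 to -2.16. Among the other pathway genes, AT2G35390 reversed as deposited (1.11) and AT1G17160 lost its call with pair means (adjusted p = 0.0517). Both probes were above 0 on all 8 arrays, and their signal over background is unknown. A search of the 6 tested pathway genes for arrays standing apart found 0 in 12 groups of 4 arrays, against 0.6 from chance.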
